A study of Bos taurus with 20 samples.

Results

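IFI47, the gene for an interferon-inducible GTPase, was far brighter in horn-region skin of polled and of scurred cattle than in that of horned cattle. The gene was chosen for this difference, so its polled and scurred levels against horned levels are given as a description, with no test. It is 1 gene of 14535 gene symbols on the array and is read by 1 probe, whose file name is MGC126992, described there as similar to interferon gamma inducible protein 47. The horn site against control skin of the same animals, on arrays of its own, was not used in the choice and is tested. Male against female animals are tested in the same fit to the within-chip differences that chose the gene, so that test is not independent of the choice. Scurred against polled skin is tested too, but it follows from the differences that chose the gene and so depends on the choice.

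Skin RNA from 11 cattle was measured on 20 Agilent 2-colour arrays of 5 chips. The 4 polled animals (hornless) were 1 male and 3 females, the 4 scurred animals (with small, loosely attached horn-like growths) were 3 males and 1 female, and the 3 horned animals were 2 males and 1 female. Biopsies held epidermis, dermis and dermal connective tissue from where a horn forms on the skull, and for scurred replicate 2 and polled replicate 3, both female, control skin was taken from another place on the skull. No age, breed, allele or treatment of the animals is given in the labels. Chips 1 to 4 each set 1 polled, 1 scurred and 1 horned animal against each other on 4 arrays, with polled against horned in both dye orders, and chip 5 set horn site against control site in both dye orders. One horned animal, replicate 2, is on both chip 2 and chip 4. Keratinocyte markers (11 of 11 on the array) and fibroblast markers (10 of 10) all passed the filter on dim probes in these skin samples.

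IFI47 belongs to the immunity-related GTPases, studied mainly in the mouse. There, interferons, and interferon gamma above all, switch these genes on in many cell types. The proteins gather on the membranes of vacuoles that hold intracellular parasites or bacteria and help to break those vacuoles open, a step in which proteins of the autophagy pathway take part. The role of bovine IFI47 in skin is not given in the sources used here.

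The probe is shown because every IFI47 value rests on it. It was designed on the gene's RefSeq transcript, per the scanner files, and its 60 bases are written 5′ to 3′ in lower case, with none marked.
IFI47 probe: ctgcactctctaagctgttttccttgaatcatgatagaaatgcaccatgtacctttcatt
Its GC content is 38.3%, against a median of 43.3% over all probes. The longest run of bases that it shares with any of the other 21474 probes is 12 on the same strand and 13 on the opposite strand. The genome build behind the array is not named, so no coordinates are given.

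Before any normalization, the probe's mean spot intensity in polled horn-site skin spanned 556 to 8667 scanner units over 14 channels, with a median of 2375. In scurred horn-site skin it spanned 950 to 7662 over 10 channels, with a median of 4202. In horned skin it spanned 102 to 833 over 12 channels, with a median of 266.7, above a local background of 62.5 to 77. The lowest polled channel therefore lay inside the horned range, while all scurred channels lay above it. The horned spots stood at 1.52 to 11.9 times their local background, and all 80 spots of the probe on the 20 arrays were called well above background by the scanner software, with 0 saturated and 0 flagged. The SD between the 2 spots of 1 channel was 0.0902 on the log2 scale.

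**Figure D1:**
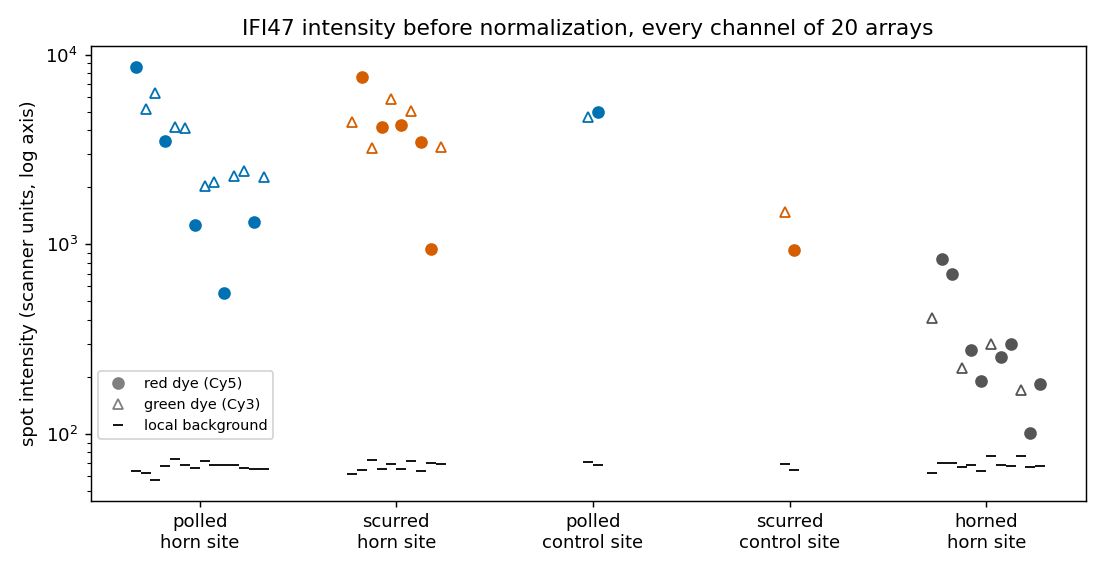
Mean spot intensity of the IFI47 probe in scanner units (log axis) for every channel of the 20 arrays, by horn type and skin site; filled circles are the red dye, open triangles the green dye and short bars the local background. The 12 horned channels lie between 102 and 833, the 4 control-site channels between 938 and 5013.

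After normalization, with each dye channel taken as a level on the log2 scale, polled animals stood at 12.65, 11.34, 11.24 and 10.38 (replicates 1 to 4). Scurred animals stood at 12.22, 11.10, 12.23 and 12.58 (replicates 1 to 4). Horned animals stood at 8.58, 7.52 and 8.49 (replicates 1 to 3). The groups averaged 11.40 ± 0.94 in polled animals (SD, n = 4), 12.03 ± 0.64 in scurred animals (SD, n = 4) and 8.20 ± 0.59 in horned animals (SD, n = 3). No polled or scurred animal overlapped the horned ones: the lowest polled animal was 1.80 above the highest horned animal, and the lowest scurred animal 2.52 above it. Both gaps are wider than the SD of any group, but they are among the values that chose the gene and are no support. Horned replicate 2, measured on 2 chips, gave 7.538 on chip 2 and 7.502 on chip 4. Since these are biopsies of whole skin, fewer cells that carry the transcript and less transcript per cell cannot be told apart.

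**Figure D2:**
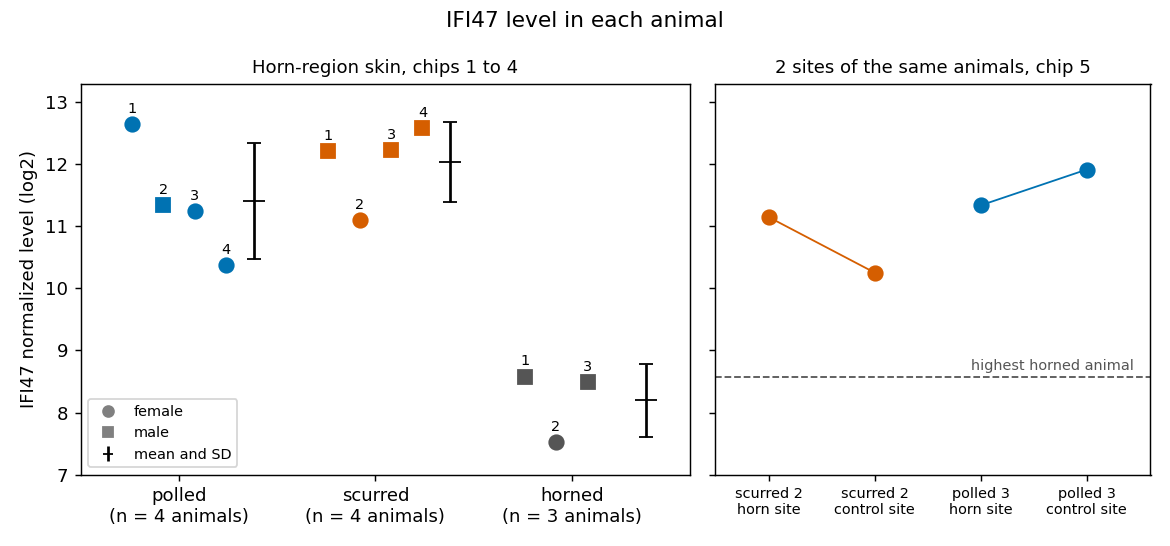
Normalized IFI47 level (log2) of each animal in horn-region skin, with replicate numbers, circles for females, squares for males, and the mean with its SD (left), and of both skin sites of scurred replicate 2 and polled replicate 3 on chip 5 (right, dashed line at the highest horned animal). The lowest polled animal stands at 10.38 and the highest horned animal at 8.58.

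The comparison within chips removes differences between chips. The polled minus horned difference of IFI47 was 4.12, 3.75, 2.82 and 2.92 on the log2 scale on chips 1 to 4, each chip being 1 polled and 1 horned animal. The scurred minus horned difference was 3.69, 3.51, 3.52 and 4.68. All 8 differences were positive, and the smallest of them was 2.82. In a fit of all 11 animals with terms for horn type and sex, polled minus horned was 3.53 (SE 0.38, 95% interval 2.62 to 4.43), an 11.5-fold difference. Scurred minus horned was 3.78 (SE 0.36, 95% interval 2.92 to 4.64), a 13.7-fold difference. Among the 16309 probes tested, no other had a larger fitted difference upwards in either comparison. The next were 3.45 (SE 1.55) for MGC128445 in polled minus horned skin and 3.51 (SE 1.11) for HBB, a globin of red blood cells, in scurred minus horned skin, both with larger errors than IFI47. For the scale of these comparisons, 0.00613% of probes passed an adjusted p of 0.05 in either direction in polled against horned skin, which is 1 probe, AIF1 (limma, Benjamini-Hochberg over all probes; the call was lost in 14 of 15 fits that left out an animal or a chip), and 0% in scurred against horned skin. At an unadjusted p under 0.05 there were 1495 probes in the first and 613 in the second comparison. Nothing is read from these shares about IFI47, which was chosen on the same values.

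**Figure D3:**
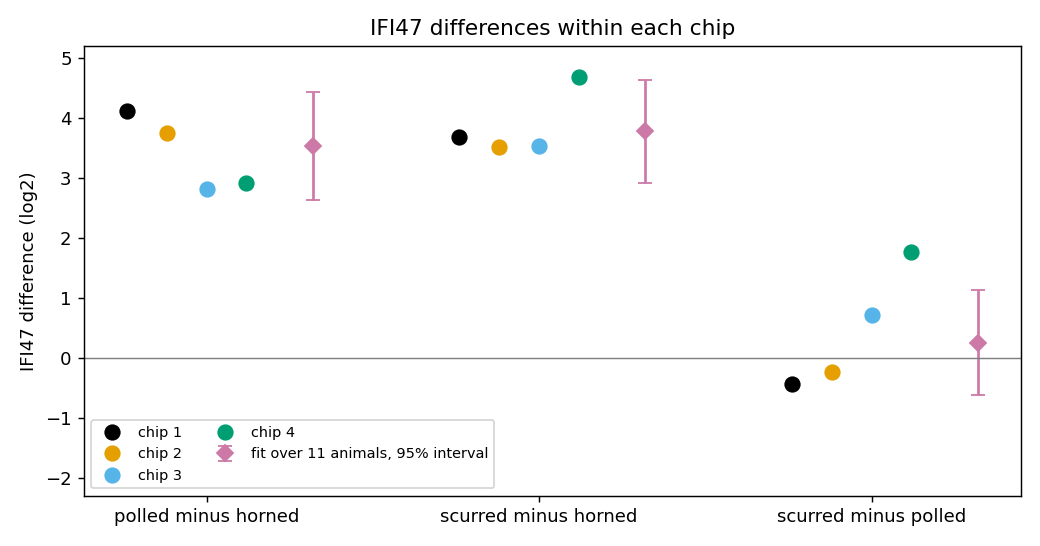
IFI47 differences (log2) on each of chips 1 to 4 (circles) and in the fit over 11 animals with its 95% interval (diamonds). Polled minus horned and scurred minus horned lie between 2.82 and 4.68 on the 4 chips, and scurred minus polled lies on both sides of 0.

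Single arrays gave the same picture in both dye orders. With polled RNA in red, the array ratio of polled over horned was 3.98, 3.89, 2.76 and 3.10 (log2, chips 1 to 4). With polled RNA in green it was 3.99, 3.70, 2.99 and 2.80, so the dye orders differed by at most 0.30. The scurred over horned ratio, measured with scurred RNA in green, was 3.92, 3.40, 3.38 and 4.59. With the scanner-processed signals, which carry no offset, the polled minus horned difference was 4.27, 4.29, 3.24 and 4.09 on chips 1 to 4 and the scurred minus horned difference 3.84, 4.09, 3.97 and 5.57. Chip 4, where the horned channels were dimmest, moved most, with a polled minus horned value of 4.09 against 2.92. The order of the chips thus depends on the processing, and which step moved it was not tested. Each array of chips 1 to 4 that held a horned animal showed IFI47 lower in the horned channel.

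The scan of chip 1 was made on a separate day, per the file headers. Its differences of 4.12 (polled minus horned) and 3.69 (scurred minus horned) compare with 2.82 to 3.75 and 3.51 to 4.68 on chips 2 to 4. Without chip 1, the fit gave 3.20 (SE 0.25) for polled minus horned and 3.70 (SE 0.26) for scurred minus horned.

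Scurred and polled skin were set against each other directly on 1 array of each chip. IFI47 was chosen as higher in both than in horned skin. Their difference is tied to that choice, so its test is not independent of it. Those arrays gave scurred over polled ratios of −0.67, −0.13, 0.85 and 1.86 (log2, chips 1 to 4). The differences from the whole loop of each chip were −0.43, −0.24, 0.71 and 1.76. IFI47 was thus lower in scurred than in polled skin on 2 chips and higher on 2, and the levels of the groups overlapped. In the fit, scurred minus polled was 0.25 (SE 0.37, 95% interval −0.62 to 1.13, adjusted p 0.948, limma with Benjamini-Hochberg over 16309 probes), so no difference was shown, and the interval still allows scurred skin to be 1.13 higher. Without chip 4 the value was −0.038. In this comparison 0% of probes passed the adjusted threshold and 991 had an unadjusted p under 0.05.

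Horn type and sex overlap in these animals. On 4 of 4 chips a male was set against a female where scurred met polled skin, while 4 of the 8 pairs with a horned animal were of the same sex. The same-sex pairs differed by 2.92 (polled replicate 4 and horned replicate 2, females), 3.69 (scurred replicate 1 and horned replicate 1, males), 3.51 (scurred replicate 2 and horned replicate 2, females) and 3.52 (scurred replicate 3 and horned replicate 3, males). The other pairs differed by 2.82 to 4.68. Of the same-sex pairs, 1 was polled against horned, and both female pairs share the 1 horned female. These pairs are among the values that chose the gene.

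Among scurred animals, the 3 males stood at 12.22 to 12.58 and the female at 11.10. Among horned animals, the 2 males stood at 8.49 and 8.58 and the female at 7.52. Among polled animals, the male at 11.34 lay inside the range of the 3 females, 10.38 to 12.65. In the fit, male minus female was 0.39 (SE 0.33, 95% interval −0.39 to 1.17, adjusted p 0.99997, limma), a difference that the test did not show. The sex term was estimated from the same within-chip differences that chose the gene. In this comparison 0.0184% of probes, 3 in number, passed the adjusted threshold.

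Chip 5 asked whether IFI47 differs between the place where a horn forms and other skin of the same head. In scurred replicate 2 the horn site had a level of 11.15 and the control site 10.25 (log2). In polled replicate 3 the horn site had 11.34 and the control site 11.92. The animals moved in opposite directions, by 0.90 in the scurred animal (1.01 and 0.79 on its arrays of either dye order) and by −0.58 in the polled animal (−0.59 and −0.56). Each of these is far out among the 16423 probes of its animal, at percentile 97.5 in the scurred and 3.62 in the polled animal, in arrays of both dye orders of the same RNA. How much animals of 1 horn type vary in this difference was not measured. Over both animals, horn site minus control site was 0.16 (SE 0.44, 95% interval −1.23 to 1.55, adjusted p 0.9996, limma), with 0% of probes past the adjusted threshold and 805 at an unadjusted p under 0.05. No difference between the sites was shown, and 2 animals leave an interval of more than 1 log2 unit on either side. With median centring in place of loess the mean turned to −0.16.

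The control skin was itself bright. The control site of the scurred animal lay 1.67 above the highest horned animal, and that of the polled animal 3.34 above it. Their horn sites on chip 5 lay 2.57 and 2.76 above it. On chips 1 to 4 the horn sites of the same 2 animals had stood at 11.10 and 11.24, close to their levels of 11.15 and 11.34 on chip 5. In these 2 animals the level above that of horned skin was thus found at both sites. Control skin of a horned animal was not analysed here, and levels on chip 5 are set against those on other chips only through the normalization between arrays.

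The other interferon-inducible GTPases had small or negative differences, with errors that leave room for a rise in some. Of 21 genes in this list, 9 had a probe and 8 passed the filter on dim probes. In polled minus horned skin, 1 of the 8 lay above 0 and 7 below, with a median of −0.33, and 0 reached an unadjusted p of 0.05 upwards, where 4.69% of all probes did. In scurred minus horned skin the median was −0.46, with 1 above 0, 7 below, and 0 at an unadjusted p of 0.05 upwards, against 1.56% of all probes. In a list of this size, 0 is close to what those shares give. The median of all 16309 probes was 0.01 in both comparisons. As a description over the 11 animals, Pearson's r with IFI47 ran from −0.43 to 0.16 over the 7 members compared.

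The closest relatives of IFI47 on the array were dim in skin. IRGC, known from the testis, had levels of 6.47 to 6.70 in polled, 6.44 to 7.17 in scurred and 6.51 to 6.71 in horned skin (log2), with a polled minus horned difference of 0.03 (SE 0.14). IRGQ, an autophagy-linked member of the family, had a difference of −0.02 (SE 0.09). A second probe described as an IRGC-like gene, LOC616722, was well above background in 2 scurred animals and in no others, and was not tested. The horn types overlapped in level for each of these 3 probes.

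Guanylate-binding proteins, larger GTPases that interferon gamma also induces, had negative differences, none of them past a threshold used here. GBP4 was −1.12 (SE 0.52) in polled minus horned and −0.68 (SE 0.50) in scurred minus horned skin. GBP6 was −1.26 (SE 0.82) and −1.05 (SE 0.78), GBP5 was −0.96 (SE 0.94) and −1.12 (SE 0.89), and GBP1 was −0.36 (SE 0.82) and −1.11 (SE 0.78). For GBP6 the levels overlapped, from 7.52 to 10.66 in polled, 8.55 to 9.51 in scurred and 8.86 to 12.14 in horned animals. For 3 of the 4 genes horned replicate 1 stood apart. It had levels of 11.79 for GBP1, 10.44 for GBP5 and 12.14 for GBP6, against 7.70 and 9.57, 7.10 and 6.34, and 8.86 and 9.72 in horned replicates 2 and 3. For GBP5 the polled minus horned difference was −3.93 on chip 1, which holds horned replicate 1, and 0.34, 0.72 and −0.32 on chips 2 to 4. Without horned replicate 1, GBP5 was 0.18 (SE 0.43) in polled minus horned and 0.29 (SE 0.43) in scurred minus horned skin, GBP1 was 0.38 (SE 0.73) and −0.21 (SE 0.74), and GBP6 was −0.75 (SE 0.85) and −0.40 (SE 0.86), so 2 of these genes turned direction. The medians of the 8 GTPases were then −0.10 and −0.13, with 2 above 0 and 6 below in each comparison, while IFI47 was 3.39 and 3.54. Guanylate-binding protein genes are close paralogs, so a probe may read more than 1 of them, and GBP7 was too dim to test. MX1 and MX2, antiviral GTPases that type I interferon induces, were −0.30 (SE 0.51) and −0.14 (SE 0.10) in polled minus horned and −0.25 (SE 0.49) and −0.02 (SE 0.09) in scurred minus horned skin.

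Other interferon-inducible genes mostly had negative differences too. Of 31 interferon gamma response genes tested, 27 lay below 0 in polled minus horned skin and 4 above, with a median of −0.25. At an unadjusted p under 0.05, 7 were lower and 0 higher, where 4.48% of all probes were lower. FCGR1A, an antibody receptor of macrophages, was −0.82 (SE 0.19), PSMB10, a subunit of the immunoproteasome, −0.96 (SE 0.29), and TAPBP, which loads peptides onto MHC class I, −0.47 (SE 0.17). None of the 31 passed the adjusted threshold. Without horned replicate 1, 20 lay below 0 and 11 above. In that fit 3 were lower at an unadjusted p under 0.05, where 3.15% of all probes were. In scurred minus horned skin 24 lay below 0 and 7 above, with a median of −0.19, and 1 was lower at an unadjusted p under 0.05, where 2.2% of all probes were. Without horned replicate 1, 18 lay below 0 and 13 above there.

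Of 36 type I interferon response genes, 33 lay below 0 in polled minus horned skin and 3 above, with a median of −0.19, and 30 lay below 0 and 6 above in scurred minus horned skin, with a median of −0.20. At an unadjusted p under 0.05, 2 were lower in polled skin, UBA7 at −0.68 (SE 0.24) and PARP9 at −0.63 (SE 0.23), both of the ISG15 and antiviral response, and 3 were lower in scurred skin. Of all probes, 4.48% and 2.2% were lower at this threshold, so the count in polled skin is near the background. IFI35 at −0.34 (SE 0.15) and IFI44 at −0.36 (SE 0.16), both named for their induction by interferon, came next in polled skin. None passed the adjusted threshold.

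Of 18 genes for interferons, their receptors and signalling, 11 lay below 0 and 7 above in polled minus horned skin, with a median of −0.05. The receptor chains IFNAR1 and IFNGR2 were −0.41 (SE 0.12) and −0.57 (SE 0.23), the kinase JAK2 −0.35 (SE 0.11), and SOCS3, an inhibitor of the pathway, −0.24 (SE 0.13). The first 3 had an unadjusted p under 0.05, where 4.48% of all probes were lower, and none passed after adjustment. Without horned replicate 1, 1 of the 18 was lower at that threshold, where 3.15% of all probes were. In scurred minus horned skin 10 lay below 0 and 8 above, with 0 at an unadjusted p under 0.05. Of all probes, 1.56% were higher and 2.2% lower at that threshold there. The gene for interferon gamma itself, IFNG, had a probe that was too dim to test.

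Of 14 autophagy genes that act with this GTPase family in the mouse, 10 lay above 0 in polled minus horned skin and 4 below, with a median of 0.16, and 8 lay above 0 in scurred minus horned skin, with a median of 0.01. None had an unadjusted p under 0.05 in either comparison. Of all probes, 4.69% were higher and 4.48% lower at that threshold in polled minus horned skin, and 1.56% and 2.2% in scurred minus horned skin. With a list of this size, nothing is read from the 0. ATG7, ATG5 and ATG3, which attach LC3-type proteins to membranes, were −0.30 (SE 0.14), 0.26 (SE 0.16) and 0.16 (SE 0.10) in polled minus horned skin, and GABARAPL2, one of those proteins, was 0.51 (SE 0.25).

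**Figure D4:**
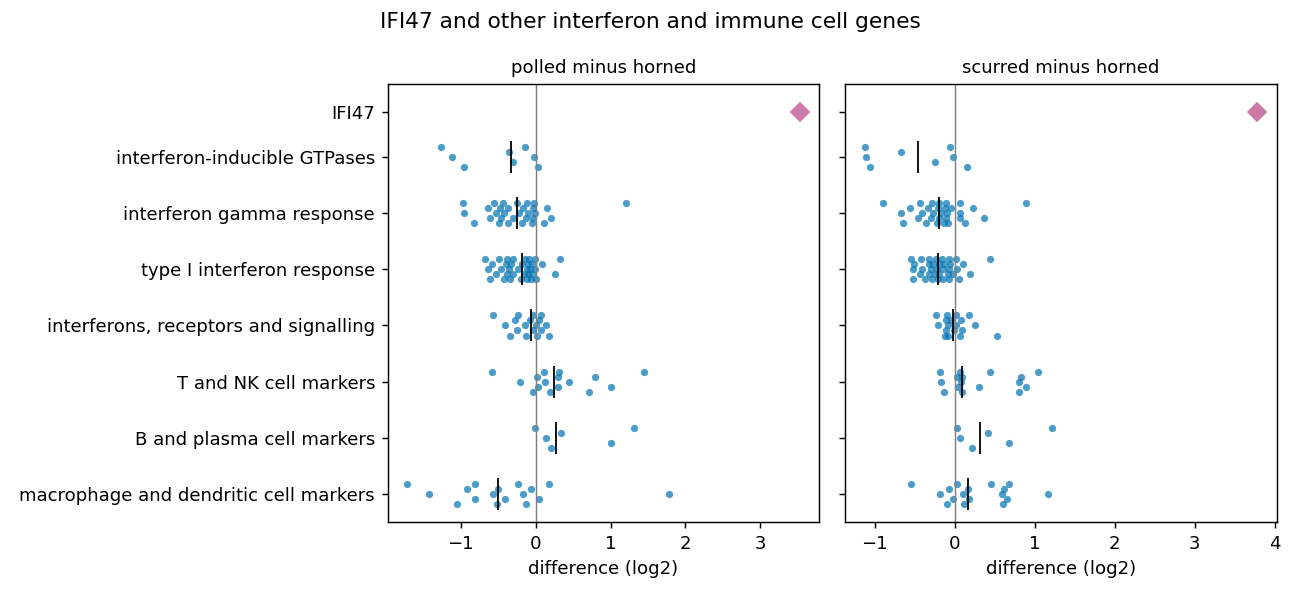
Polled minus horned (left) and scurred minus horned (right) differences (log2) of IFI47 (diamond) and of the tested members of 7 gene lists (circles, with the list's median as a vertical bar). IFI47 stands at 3.53 and 3.78, and no member of the 7 lists reaches 2.

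Genes with levels most like those of IFI47 over the 11 animals were sought among 12760 tested probes with a gene symbol, 1 probe a gene. The animals form separate clusters, since the 3 horned ones lie far below the rest on IFI47, so the r values describe that split above all and carry no test. The highest were BLK, a kinase of B cells (r = 0.90), CD163L1, a scavenger receptor whose relatives mark gamma delta T cells in cattle (0.89), SLC15A4, a lysosomal transporter (0.88), and CD3G and CD3E, chains of the T cell receptor complex (0.84 and 0.83). Within the 8 polled and scurred animals the same 5 genes gave 0.64, 0.35, 0.70, 0.48 and 0.49.

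BLK showed the split on its own scale. Its level was 7.39 to 8.48 in polled, 7.78 to 8.58 in scurred and 6.64 to 7.04 in horned animals. How many of all probes show such a split was not counted. The fitted difference of BLK was 1.32 (SE 0.31) in polled minus horned and 1.21 (SE 0.30) in scurred minus horned skin. For CD163L1 the differences were 1.73 (SE 0.30) and 1.42 (SE 0.29). CD3G differed by 0.79 (SE 0.15) and 0.80 (SE 0.15), CD3E by 0.72 (SE 0.12) and 0.81 (SE 0.12), and SLC15A4 by 0.37 (SE 0.11) and 0.40 (SE 0.10). These genes were picked for likeness to IFI47, so their differences are a description, and each is smaller than that of IFI47.

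The lowest r were those of ZNF419, a zinc finger gene (−0.87), LRAT, which esterifies retinol (−0.86), IGSF1, a membrane protein of the immunoglobulin superfamily (−0.86), CACNB2, a calcium channel subunit (−0.85), and CADM3, an adhesion molecule of neurons and glia (−0.84). CADM3 stood at 9.35 to 9.54 in polled, 8.93 to 9.57 in scurred and 10.31 to 10.58 in horned animals. LRAT differed by −1.63 (SE 0.20) in polled minus horned and −1.13 (SE 0.19) in scurred minus horned skin. Within the 8 polled and scurred animals, r fell close to 0 for IGSF1 (0.03) and turned positive for CADM3 (0.18), and was −0.76 for CACNB2.

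Markers of cell types in the biopsies moved with horn type to different degrees. Of 16 T and NK cell markers tested, 13 lay above 0 in polled minus horned skin, with a median of 0.24, and 13 in scurred minus horned skin, with a median of 0.09. In either comparison 6 were higher at an unadjusted p under 0.05, where 4.69% and 1.56% of all probes were. By lowest p in polled minus horned skin these were SIT1 at 1.005 (SE 0.14), CD3E and CD3G, given above, and ZAP70 at 1.45 (SE 0.37), all of T cell receptor signalling. None passed after adjustment. Without horned replicate 1, 4 were higher at that p in polled and 3 in scurred minus horned skin. Of all probes, 3.84% and 1.51% were higher in that fit. The summed intensity of the 16 markers overlapped between groups, at 3883 to 6941 in polled, 4814 to 11972 in scurred and 4805 to 8474 in horned animals.

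Of 6 B and plasma cell markers tested, 5 lay above 0 in polled minus horned and 6 in scurred minus horned skin. BLK, also picked above for its likeness to IFI47, was the single one at an unadjusted p under 0.05 in each. Of all probes, 4.69% and 1.56% were higher at that threshold. BLNK, an adaptor of the B cell receptor, was 1.01 (SE 0.48) and CD79A 0.14 (SE 0.15) in polled minus horned skin. The summed intensity of the 6 markers was 1567 to 2131 in polled, 1612 to 2416 in scurred and 1275 to 1557 in horned animals. Horned animals did not overlap the others, but the edges, 1557 and 1567, lay close together. How many lists or probes set the horned animals apart in this way was not counted, so nothing is read from it. The probe of MS4A1, a defining B cell gene, was too dim to test. The part of lymphocytes in the IFI47 difference was not tested.

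Of 17 macrophage and dendritic cell markers, 14 lay below 0 in polled minus horned skin, with a median of −0.50, while 12 lay above 0 in scurred minus horned skin, with a median of 0.16. AIF1 fell by 1.71 (SE 0.11, adjusted p 0.0174, limma), and CD86 at −0.56 (SE 0.17), CD1E at −0.52 (SE 0.18) and CD14 at −0.50 (SE 0.18) did not pass. LYZ went the other way, at 1.78 (SE 0.71) in polled minus horned and 1.17 (SE 0.68) in scurred minus horned skin. At an unadjusted p under 0.05, 4 were lower and 1 higher in polled minus horned skin, where 4.48% and 4.69% of all probes were. In scurred minus horned skin 1 was lower and 3 higher, against 2.2% and 1.56% of all probes. The AIF1 call was lost with scanner-processed signals, the authors' log ratios or median centring, without the replicate block and in 14 of 15 fits that left out an animal or a chip. On the 4 chips AIF1 was −1.59, −1.71, −1.75 and −1.75 in polled minus horned skin. Without horned replicate 1, 13 of the 17 markers lay below 0 in polled minus horned skin and 16 above 0 in scurred minus horned skin. In that fit 3 were lower and 0 higher at an unadjusted p under 0.05 in polled minus horned skin, where 3.15% and 3.84% of all probes were. In scurred minus horned skin 1 was lower and 6 higher, against 1.28% and 1.51% of all probes. IFI47 was high in polled and in scurred skin alike. Endothelial markers lay below 0 in 9 of 10 in polled minus horned and 10 of 10 in scurred minus horned skin, with medians of −0.23 and −0.26; KDR at −0.68 (SE 0.27), ENG at −0.44 (SE 0.19), VWF at −0.63 (SE 0.37) and TIE1 at −0.25 (SE 0.24) led by p in polled skin. Their part was not tested.

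Keratinocyte markers lay above 0 in 11 of 11 cases in both comparisons, with medians of 1.80 in polled minus horned and 1.60 in scurred minus horned skin. Of these, TP63 and DSG3 were well above background in 0 horned animals. They passed the filter on dim probes only through polled and scurred animals, so their direction was partly fixed by the filter. COL17A1, a hemidesmosome collagen, was 2.62 (SE 0.82), KRT5 and KRT14, the keratins of the basal layer, were 2.58 (SE 1.27) and 1.78 (SE 0.96), and TP63, the epidermal transcription factor, was 0.36 (SE 0.17). None passed after adjustment. The summed intensity of the 11 markers was 100916 to 434531 in polled, 31723 to 64957 in horned and 29314 to 1021090 in scurred animals. Scurred replicates 1 to 4 had sums of 1021090, 578900, 47688 and 29314, and IFI47 levels of 12.22, 11.10, 12.23 and 12.58. Within chips 1 to 4 the median scurred minus horned difference of the markers was 3.97, 2.49, 0.31 and −0.52. Without horned replicate 1, 10 of the 11 markers lay above 0 in each comparison, with medians of 1.26 and 1.16. The part of keratinocytes in the IFI47 difference was not tested.

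Fibroblast markers lay below 0 in 10 of 10 cases in polled minus horned skin, with a median of −0.84 (9 of 10 and −0.57 without horned replicate 1), and were even in scurred minus horned skin, 5 above and 5 below with a median of 0.01 (10 above and 0.39 without horned replicate 1). PDGFRA at −0.40 (SE 0.14), LUM at −1.10 (SE 0.44), COL1A1 at −1.52 (SE 0.66) and COL3A1 at −1.58 (SE 0.77) led by p. Skeletal muscle markers lay above 0 in 10 of 11 cases in both comparisons, with medians of 1.44 and 1.61; ACTA1 at 2.76 (SE 1.43), TNNT1 at 1.66 (SE 0.91), MB at 2.07 (SE 1.16) and CKM at 1.36 (SE 0.80) led by p in polled minus horned skin. Their summed intensity overlapped between all groups, at 19684 to 827839 in polled, 19923 to 201202 in scurred and 4035 to 168679 in horned animals.

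The genes beside IFI47 on the cattle assembly ARS-UCD2.0 were looked up for their order alone. TRIM52, a TRIM family gene directly before it, differed by 0.18 (SE 0.20) in polled minus horned and −0.23 (SE 0.19) in scurred minus horned skin. Going further before it, TRIM41 was 0.25 (SE 0.12) and −0.01 (SE 0.12), TRIM7 0.72 (SE 0.34) and 0.23 (SE 0.32), BTNL9, a butyrophilin-like gene, −0.05 (SE 0.50) and −0.25 (SE 0.48), and MGAT1, an enzyme of N-glycan synthesis, −0.22 (SE 0.20) and −0.13 (SE 0.19). After it, the nearest gene tested was ZNF496, with 4 genes between, at −0.10 (SE 0.11) and −0.07 (SE 0.10). NLRP3, the inflammasome sensor, was −0.0035 (SE 0.09) and 0.10 (SE 0.09), and SH3BP5L, ZNF672 and ZNF692, more than 80 genes away, lay between −0.23 and 0.16 in both comparisons. None of these 10 neighbours passed the adjusted threshold, and the largest of their differences, that of TRIM7, was a fraction of the 3.53 of IFI47. RACK1, also close by, had a probe that was not among those tested.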

How the data were processed

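Skin RNA of 11 cattle was compared on 20 arrays. The deposited scanner files give spot intensity in both dyes on a linear scale, and, per the file headers, processed intensities and a log10 ratio of red over green made by the scanner software. That software was Agilent Feature Extraction 9.5.1, per the submitters' processing notes. The authors' deposited value table holds the same log10 ratios, 14 columns in the red over green direction and 6 turned, with column medians from −0.019 to 0.0097; it served as an alternative after conversion to log2.

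From these files, normexp with an offset of 50 corrected the background, and loess normalized each array, in limma 3.58.1 (R 4.3.3, with the package data.table, version 1.17.8). Control spots had no weight and flagged spots were left out. Duplicate spots were averaged. Levels per animal are separate channels after loess and Aquantile normalization. Differences within chips, with a dye coefficient, entered a fit by generalized least squares that estimated polled and scurred differences and a sex term. Its moderated tests were two-sided, with Benjamini-Hochberg adjustment over the 16309 probes well above background in at least 3 animals (chip 5: 16423 probes, at least 2 RNAs). The number of arrays and animals limits the precision. Between 62.2% and 73.7% of spots were well above background. The fit was tested on simulated data.

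The chip, whose number the array labels carry, is the block. Deviations of the polled and the scurred animal correlated at r of 0.24, 0.29 and 0.42 on chips 1 to 3 and −0.08 on chip 4. Gene names came from the RefSeq table of ARS-UCD2.0 for 16077 of 21475 probes. IFI47 and all gene lists were chosen with earlier results of these data known. Named genes are all tested GTPases, the 4 of lowest p in polled against horned skin of each other list, the 5 genes most and least like IFI47, and 5 neighbours on each side; some genes that this rule names are not reported here. For a gene with several probes, a probe that passed the filter was preferred, and among those the highest mean level decided. Alternatives covered background correction, normalization, flags, filter, sex term, block, and each animal and chip left out. Gene lists without horned replicate 1, and chip values from scanner-processed signals, were added after seeing the data.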

Additional observations from a re-analysis of the deposited data

Results flagged for a closer look

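The scurred minus horned difference of IFI47 on chip 4, 4.68 on the log2 scale, stands apart from 3.51 to 3.69 on the other chips. It is the pair of scurred replicate 4, the highest scurred animal at 12.58, and horned replicate 2, the lowest animal of all at 7.52; the same horned animal gave 3.51 against scurred replicate 2 on chip 2. By its construction, Dixon's 95% critical value sets 1 value apart by chance in about 1 of 20 groups.

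The difference between horn site and control site of IFI47 had opposite signs in the animals measured, 0.90 in scurred replicate 2 and −0.58 in polled replicate 3, each on both of its arrays. With 1 animal of each horn type the difference between them was not tested.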

How the results depend on the processing

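In both comparisons with horned skin IFI47 kept its direction in all 9 other settings. It also kept it in all 15 fits that left out an animal or a chip. The gene was chosen on these differences, all of them at least 2.82 within chips, so the kept direction is no support. Polled minus horned spanned 3.38 to 4.06 over the settings and 3.20 to 3.66 over the fits with something left out; scurred minus horned spanned 3.73 to 4.22 and 3.54 to 3.98. The highest values, 4.06 and 4.22, came from the scanner-processed signals, which carry no offset of 50. With no background subtraction, also without that offset, the values were 3.45 and 3.77, and the cause was not tested. Without the replicate block, the values were 3.504 for polled minus horned, 3.78 for scurred minus horned, 0.28 for scurred minus polled and 0.71 for male minus female, and no call on IFI47 changed.

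Scurred minus polled spanned 0.16 to 0.45 over the settings and −0.04 to 0.54 over the fits with something left out, with the negative value in the fit without chip 4 (−0.038); its adjusted p was 0.558 to 0.99998 throughout. Male minus female, tried under the same alternatives after the data were seen, spanned 0.17 to 0.71. Horn site minus control site turned to −0.16 with median centring and was −0.58 without scurred replicate 2 and 0.90 without polled replicate 3.

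The count of probes past the adjusted threshold in polled against horned skin, 1, became 0 with scanner-processed signals, the authors' log ratios or median centring, and was 0 in 14 of the 15 fits with something left out (range 0 to 1). Without the replicate block the 1 probe called was IGSF1 in place of AIF1. In scurred against horned skin the count of 0 became 1 with median centring and ran from 0 to 1 over the fits with something left out; the probe was IFI47 each time, which is no support since it was chosen on this contrast. In scurred against polled skin it became 1 with no sex term. The causes were not tested.

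Probes with an unadjusted p under 0.05 numbered 991 in scurred against polled skin, against 414 to 1590 over the settings, and 805 for horn site against control site, against 689 to 1409. Horned skin, at 1.52 to 11.9 times background, is where signal limits the size of the difference most.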
